A study of Mus musculus with 11 samples.

Results

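The 7 genes Dlg1, Dlg2, Dlg3, Dlg4, Kalrn, Baiap2 and Synpo encode the PSD-95 family of synaptic scaffolds and 3 proteins that shape dendritic spines. They were taken by gene name from a table of 17118 genes measured in mouse hippocampus, and all 7 were found once and passed the filter on low counts, which left 15353 genes. By its title the series asks how chemotherapy changes cognition, along with gut and microbiome. Female C57/BL6 mice, 12 weeks old, received 8 weekly intraperitoneal injections and carry a label of 1 month. The AC-T group (5 libraries, mice 501, 502, 503, 600 and 602) received 2 mg/kg doxorubicin with 50 mg/kg cyclophosphamide in 4 injections and then 5 mg/kg paclitaxel in 4 injections. The control group (6 libraries, mice 201, 202, 203, 300, 301 and 302) received 0.9% saline. The labels give the genotype of both groups as C57/BL6J, name no tumour or engineered allele, and trace each library to a 0.2 mm hippocampal punch from the frozen brain of 1 mouse.

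The PSD-95 family comprises membrane-associated guanylate kinases, which carry PDZ domains that hold glutamate receptors and adhesion proteins at the postsynaptic density. Dlg4 encodes PSD-95 itself, Dlg1 encodes SAP97, Dlg2 encodes PSD-93 and Dlg3, an X-linked gene, encodes SAP102. Kalirin (Kalrn) is an exchange factor that activates Rac, IRSp53 (Baiap2) bends the membrane and links Rac to actin, and synaptopodin (Synpo) is needed to build the spine apparatus, a store of calcium in the spines of forebrain neurons. The counts are per gene, so isoforms such as the short synaptic form of kalirin are not separated.

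Library totals ran from 23.4 to 32.1 M counts. All 9 CA1, 8 CA3 and 8 dentate granule neuron markers were measured in the tissue. The libraries also differed in markers of neighbouring tissue. The thalamic score, the mean log2 CPM (CPM, the normalised read count relative to library size) of 14 markers, was 4.81 ± 0.351 after AC-T (SD, n = 5) and 5.97 ± 0.331 after saline (SD, n = 6). Its exact permutation p was 0.00216, which no split could undercut, or 0.00866 after adjustment for 4 library measures. The summed level of these 14 markers was 693 to 1009 CPM after AC-T and 1333 to 1989 CPM after saline, and none of them was at 0 in all libraries. CA1 markers scored 5.77 ± 0.141 in AC-T libraries (SD, n = 5) against 4.61 ± 0.777 in saline libraries (SD, n = 6; exact permutation p = 0.00649, adjusted 0.013). The 4 library measures were both scores, the library total and the share of counts from mitochondrial genes. That share was 10.1 ± 1.57% after AC-T and 11.5 ± 0.924% after saline (SD, n = 5 and 6, exact permutation p = 0.115, adjusted 0.153). Of the thalamic markers 12 of 14 passed as lower, and of the CA1 markers 1 of 9 as higher. The marker lists were chosen with earlier results of these data known. Their p-values and counts are therefore descriptions, not independent tests. Among the other lists, neocortex had 4 higher and 1 lower of 11, interneurons 4 and 2 of 10, astrocytes 0 and 3 of 9 and endothelium 0 and 1 of 7, and the CA3, dentate granule, striatal, oligodendrocyte, precursor, microglial and choroid plexus lists had 0 calls. Saline 300 had a count of 0 for Xist, although the labels give female mice. In bulk tissue fewer cells of a type and less RNA per cell cannot be told apart.

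Expression of the scaffold and spine genes was compared between AC-T and saline with edgeR's quasi-likelihood test, adjusted by Benjamini-Hochberg over all 15353 genes. Dlg1, Dlg3, Baiap2 and Synpo rose after AC-T, and none of the 7 fell. The rises were small, between 1.21-fold for Dlg1 and 1.32-fold for Baiap2. Dlg2, Dlg4 and Kalrn did not pass an adjusted p of 0.05, with log2 fold changes of 0.30, 0.18 and 0.38. Over all genes tested 8.47% passed, 4.89% as higher and 3.58% as lower. An unadjusted p under 0.05 was found for all 7 genes and for 24.9% of all genes. The log2 fold change was above 0 for 7 of the 7 genes, against 49.4% of all genes. No gene of the 7 had groups that did not overlap, a pattern shown by 7.52% of all genes, and with AC-T higher by 4.42%. The median log2 fold change was 0.30 over the 7 genes and -0.0029 over all genes.

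**Figure D1:**
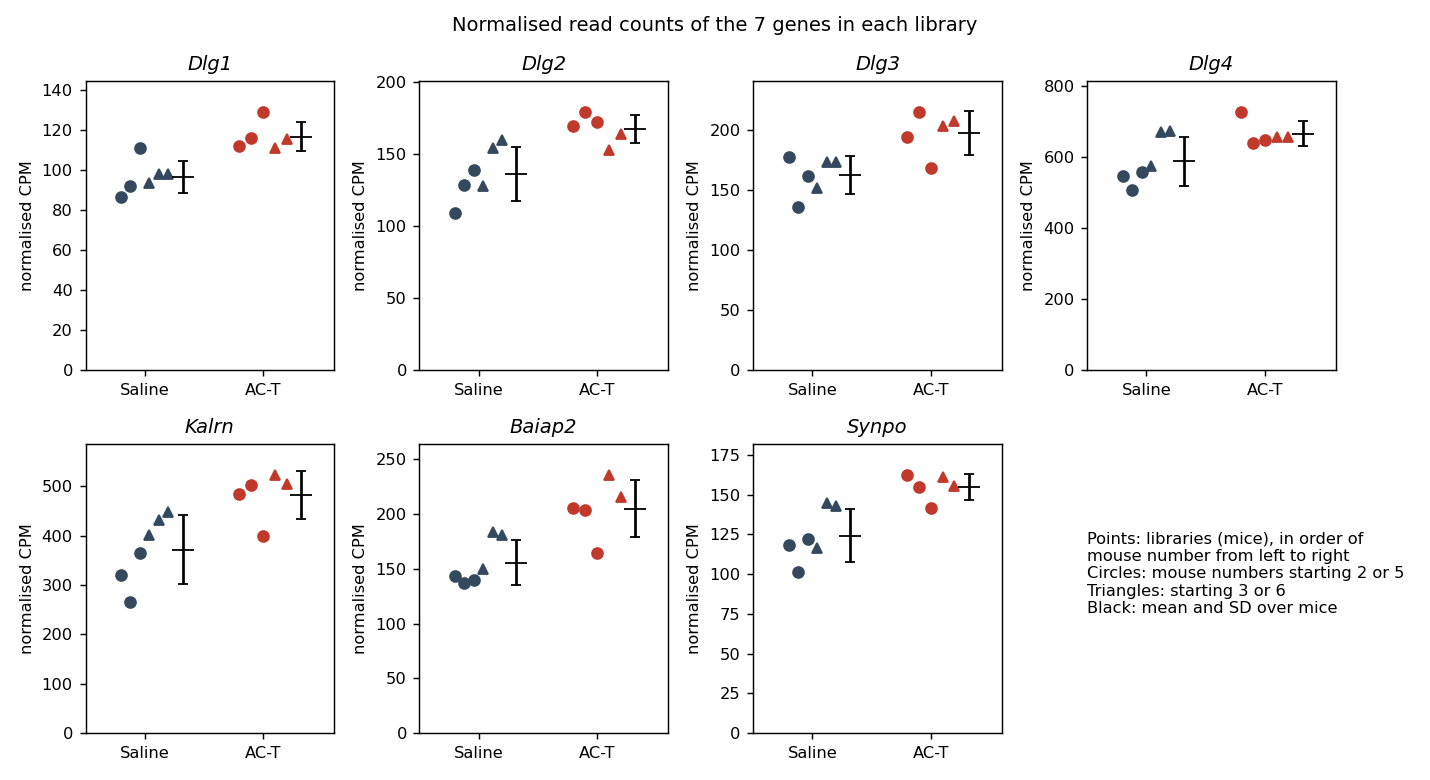
Normalised CPM of the 7 genes in each library (vertical axes start at 0), with saline in dark blue and AC-T in red; circles are mice whose number starts with 2 or 5, triangles those with 3 or 6, and black marks give the mean and SD over mice. The AC-T points lie mostly above the saline points in each panel, but the ranges overlap for all 7 genes.

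Of the genes that rose, Dlg1, Dlg3 and Baiap2 have a printable window. Their promoters are shown as a description beside that of Dlg4, which did not pass. Each is the 250 bases before an annotated start from RefSeq (build GRCm38.p6, plus strand), and where a gene has several starts the window with the most CpG dinucleotides is given, since these data do not say which start was used. Capitals mark matches on either strand to the GC box GGGCGG, the CCAAT box, the E-box CACGTG, the YY1 core CCATNTT and the TATA box TATAAA.
Dlg1, chr16:31663685-31663934: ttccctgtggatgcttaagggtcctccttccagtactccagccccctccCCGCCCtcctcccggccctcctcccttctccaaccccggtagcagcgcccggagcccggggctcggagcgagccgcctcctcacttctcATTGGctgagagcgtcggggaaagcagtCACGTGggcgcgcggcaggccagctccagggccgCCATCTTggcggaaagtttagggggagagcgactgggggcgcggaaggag
Dlg3, chrX:100777021-100777270: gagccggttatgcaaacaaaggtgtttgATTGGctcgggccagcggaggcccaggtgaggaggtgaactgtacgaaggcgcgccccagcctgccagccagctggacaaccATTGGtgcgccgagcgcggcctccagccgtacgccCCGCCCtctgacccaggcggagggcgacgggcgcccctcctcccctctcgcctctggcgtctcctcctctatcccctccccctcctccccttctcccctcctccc
Baiap2, chr11:119942842-119943091: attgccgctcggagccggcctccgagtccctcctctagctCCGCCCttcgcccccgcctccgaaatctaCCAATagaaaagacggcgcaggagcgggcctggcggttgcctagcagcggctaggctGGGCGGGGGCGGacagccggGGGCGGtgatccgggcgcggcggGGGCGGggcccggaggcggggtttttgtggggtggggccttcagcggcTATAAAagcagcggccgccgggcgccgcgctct
Dlg4, chr11:70023732-70023981: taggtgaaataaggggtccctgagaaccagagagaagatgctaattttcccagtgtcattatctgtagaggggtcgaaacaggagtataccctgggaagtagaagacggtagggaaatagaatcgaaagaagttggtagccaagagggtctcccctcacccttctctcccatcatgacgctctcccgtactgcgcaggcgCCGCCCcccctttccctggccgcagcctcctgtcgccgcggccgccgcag
A GC box was present in these 4 windows and not in those of Dlg2 (3 CpG) and Kalrn (9 CpG), chosen in the same way and not printed. Of 32851 promoter windows of the same length, which were not picked for their CpG content, 32.7% held one. None of the marked matches overlapped another. The Baiap2 window held 5 GC boxes and 31 CpG dinucleotides, more than 94.8% of all windows. The Dlg1 window held 20 CpG, the Dlg3 window 19 and the Dlg4 window 14, against a median of 6. The CCAAT box occurred once in Dlg1 and Baiap2, 2 times in Dlg3 and not in the Dlg4 window (33.8% of all windows). An E-box (6.02%) and a YY1 core (12.4%) were found in Dlg1, and a TATA box (12.4%) in Baiap2. These matches describe letters in a window and no binding was measured here.

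Dlg1, whose product SAP97 takes part in the delivery of AMPA receptors, had the smallest adjusted p of the 7 genes. It stood at 112, 116, 129, 111 and 116 CPM in AC-T 501, 502, 503, 600 and 602, and at 86.7, 92.3, 111, 93.7, 98.2 and 97.9 CPM in saline 201, 202, 203, 300, 301 and 302. Saline 203 lay just above AC-T 600, the lowest of its group, and the other 5 saline libraries lay below every AC-T library. The mean was 117 ± 7.27 CPM after AC-T (SD, n = 5) and 96.6 ± 8.23 CPM after saline (SD, n = 6), a log2 fold change of 0.27 ± 0.063 (SE; edgeR adjusted p = 0.0235). The call ended without AC-T 502 (adjusted p = 0.0555), AC-T 602 (0.0524), saline 202 (0.0502) or saline 300 (0.0576).

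Dlg3, whose product SAP102 is the family member abundant in young synapses, stood at 194, 215, 168, 203 and 207 CPM in AC-T 501, 502, 503, 600 and 602. In saline 201, 202, 203, 300, 301 and 302 it stood at 177, 136, 161, 151, 173 and 173 CPM. AC-T 503 was the only AC-T library inside the saline range. The difference was 197 ± 17.9 against 162 ± 15.9 CPM (SD, n = 5 and 6; log2 0.28 ± 0.079 SE; edgeR adjusted p = 0.048). This call was close to the threshold and ended when any of 9 libraries was left out, all but AC-T 503 and saline 201, and the adjusted p reached 0.122 on omission of AC-T 502.

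Dlg2, whose product PSD-93 shares its partners largely with PSD-95, stood at 169, 179, 172, 153 and 164 CPM in AC-T 501, 502, 503, 600 and 602. The saline libraries 201, 202, 203, 300, 301 and 302 stood at 109, 128, 139, 128, 154 and 159.7 CPM. Saline 301 and 302 overlapped the AC-T range, whereas the other 4 did not. The log2 fold change was 0.30 ± 0.089 (SE; edgeR adjusted p = 0.0615), and it passed without saline 302 (0.0314), among genes above 0 in all libraries (0.0448) and in DESeq2 (0.0142). In these fits 8.04%, 10.1% and 16.7% of all genes passed.

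Dlg4, which encodes the most abundant scaffold of the postsynaptic density, showed the smallest difference of the 7. It stood at 728, 641, 649, 659 and 657 CPM in AC-T 501, 502, 503, 600 and 602, and at 547, 508, 559.6, 575, 671 and 676 CPM in saline 201, 202, 203, 300, 301 and 302. Only AC-T 501 exceeded saline 301 and 302. The mean was 667 ± 34.9 against 589 ± 68.8 CPM (SD, n = 5 and 6; log2 0.18 ± 0.078 SE, 95% interval 0.0079 to 0.35; edgeR adjusted p = 0.179), and its call did not change when any 1 library was left out.

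Whether the paralogs changed unequally was asked from their ratios within each library, which do not depend on scaling. For the 6 pairs of Dlg genes the groups overlapped and no pair passed (exact permutation test over 462 splits, 2-sided, smallest adjusted p = 0.727 over 6 pairs). The log2 ratio of Dlg4 to Dlg2 was 2.00 ± 0.117 after AC-T (SD, n = 5) and 2.12 ± 0.125 after saline (SD, n = 6), a difference of -0.12 (exact permutation p = 0.141). That of Dlg4 to Dlg1 differed by -0.091 (exact permutation p = 0.364) and that of Dlg4 to Dlg3 by -0.0999 (0.277). The passing of Dlg1 and Dlg3 and not of Dlg2 and Dlg4 is therefore not shown to be a difference between the paralogs.

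Baiap2 had the largest log2 fold change of the 7 genes, 0.40 ± 0.10 (SE; edgeR adjusted p = 0.0381). It stood at 206, 204, 164, 236 and 215 CPM in AC-T 501, 502, 503, 600 and 602, and at 144, 137, 139.6, 149.6, 183 and 181 CPM in saline 201, 202, 203, 300, 301 and 302. AC-T 503 lay among the saline libraries, and saline 301 and 302 stood apart from the other 4. The mean was 205 ± 26.1 after AC-T (SD, n = 5) and 156 ± 20.8 CPM after saline (SD, n = 6). The call ended when any of 8 libraries was left out, all but AC-T 503, saline 301 and saline 302, and the adjusted p reached 0.0866 on omission of AC-T 602.

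Synpo stood at 163, 155, 142, 161 and 155 CPM in AC-T 501, 502, 503, 600 and 602. Its saline values were 118, 101, 122, 116, 145 and 143 CPM in mice 201, 202, 203, 300, 301 and 302. AC-T 503, the lowest of its group, lay just below saline 301 and 302. The rise was 1.25-fold, with means of 155 ± 8.16 CPM after AC-T and 124 ± 16.7 CPM after saline (SD, n = 5 and 6; log2 0.32 ± 0.086 SE; edgeR adjusted p = 0.042). The call ended when any of 8 libraries was left out, all but AC-T 503, saline 301 and saline 302, and the adjusted p reached 0.0931 on omission of saline 300.

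Kalrn varied most among the saline mice, with a coefficient of variation of 18.9% against 8.51% for Dlg1. It stood at 485, 502, 399, 524 and 504 CPM in AC-T 501, 502, 503, 600 and 602, and at 319, 265, 364, 402, 433 and 448 CPM in saline 201, 202, 203, 300, 301 and 302. Again AC-T 503 fell inside the saline range and the other 4 AC-T libraries lay above it. The log2 fold change of 0.38 ± 0.13 (SE; 95% interval 0.097 to 0.66) was nearly as large as that of Baiap2 but did not pass (edgeR adjusted p = 0.0921). It passed in DESeq2 (0.0281), where 16.7% of all genes passed, against 8.47% in edgeR.

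AC-T 503 thus had the lowest level of its group for Dlg3, Kalrn, Baiap2 and Synpo, and the highest for Dlg1. It was also the AC-T library with the lowest score of dentate granule neuron markers, 4.20 against 4.90 to 5.21 in the other 4. Its neocortex score, 4.21 against 3.67 to 4.03, and its mitochondrial share, 12.2% against 8.69% to 11.4%, were the highest of the group. The part of these differences in the result was not tested.

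Mouse numbers begin with 5 or 6 in the AC-T group and with 2 or 3 in the saline group. What these series stand for is not given in the labels, and no series held both treatments, so treatment and series cannot be told apart. In a model with 4 series means, 5 of the 7 genes were higher in AC-T than in saline series 2 (mice 201 to 203; 5.83% of all genes were higher), all but Dlg1 and Dlg3. Against saline series 3 (mice 300 to 302) 0 of the 7 passed in edgeR (7.25% of all genes passed, 4.31% as higher), while 4 had an unadjusted p under 0.05, as did 26.6% of all genes. These contrasts share the AC-T libraries. The Kalrn log2 fold change was 0.62 ± 0.11 against series 2 and 0.19 ± 0.11 against series 3, and that of Dlg4 was 0.31 ± 0.070 and 0.054 ± 0.070. Dlg1 gave 0.26 ± 0.080 and 0.27 ± 0.080, nearly equal estimates against both. With series as a random effect in limma-voom 0 of the 7 passed (1.91% of all genes did), with adjusted p of 0.105 for Dlg1, 0.167 for Dlg3, 0.0989 for Baiap2 and 0.119 for Synpo, while 6 had an unadjusted p under 0.05, as did 17.8% of all genes.

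For some of the 7 genes the means also differed between the saline series themselves. Kalrn averaged 316 ± 49.6 CPM in saline series 2 and 428 ± 23.8 CPM in saline series 3 (SD, n = 3 each), a log2 difference of 0.43 ± 0.12 (SE; edgeR adjusted p = 0.0951). Dlg4 was 538 ± 27.2 and 641 ± 56.8 CPM in the same series (log2 0.25 ± 0.077; adjusted p = 0.123), Baiap2 140.3 ± 3.22 and 171 ± 18.8 CPM, and Synpo 114 ± 11.2 and 135 ± 15.9 CPM. None of the 7 passed between the saline series in edgeR (1.03% of all genes passed), although 5 had an unadjusted p under 0.05, as did 20.1% of all genes. In saline series 2 and 3 Dlg2 was 125 ± 15.2 and 147 ± 17.0 CPM. Dlg3 was 158 ± 20.8 and 166 ± 12.45 CPM, and Dlg1 was 96.7 ± 12.8 and 96.6 ± 2.53 CPM. Thalamic scores in these libraries were 6.43, 6.12 and 6.20 in saline 201, 202 and 203, and 5.67, 5.76 and 5.62 in saline 300, 301 and 302.

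**Figure D2:**
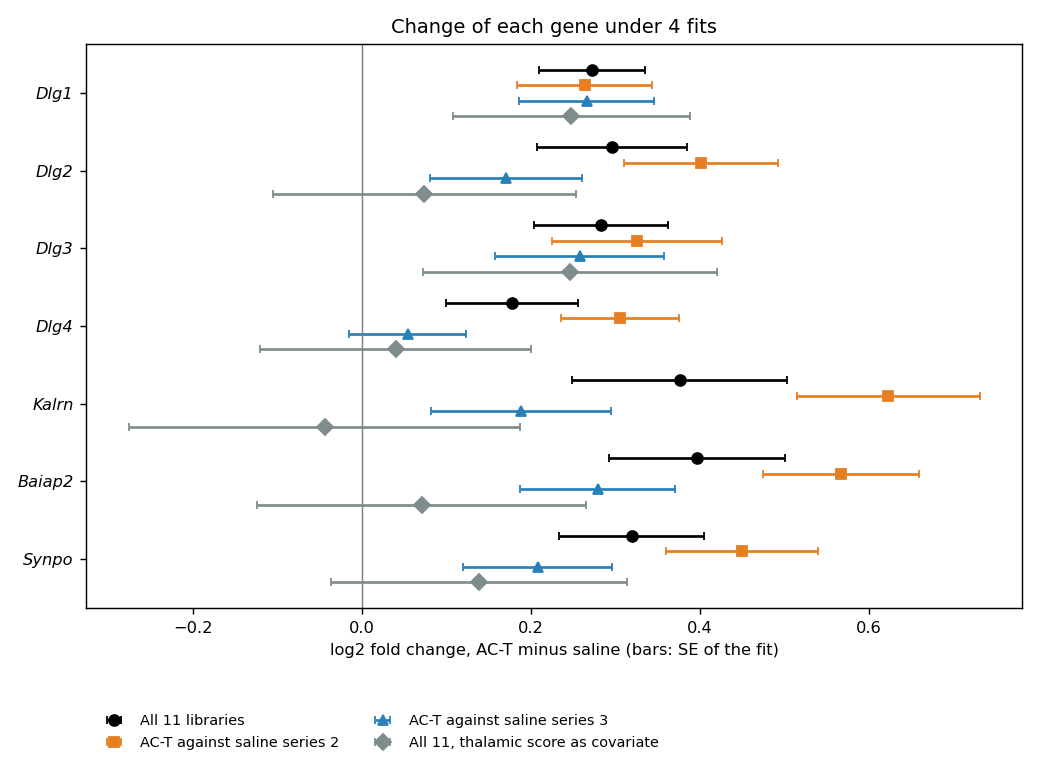
Log2 fold change, AC-T minus saline (horizontal axis), of each of the 7 genes under 4 fits, with bars for the SE of the fit. The estimates for Dlg1 lie between 0.25 and 0.27 under all 4, whereas those for Kalrn run from -0.044 with the thalamic score as covariate to 0.62 against saline series 2.

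With the thalamic score of each library as covariate none of the 7 genes passed in edgeR, 0 had an unadjusted p under 0.05 (9.13% of all genes did), and 1 gene passed among all 15353 (0.00651%). The score separates the groups without overlap, and standard errors rose with it, for Dlg1 from 0.063 to 0.14. The estimate was 0.25 (95% interval -0.062 to 0.56) for Dlg1 and 0.25 (-0.14 to 0.63) for Dlg3. It was 0.074 (-0.32 to 0.47) for Dlg2, 0.040 (-0.31 to 0.39) for Dlg4, 0.071 (-0.36 to 0.50) for Baiap2, 0.14 (-0.25 to 0.53) for Synpo and -0.044 (-0.56 to 0.47) for Kalrn. With the CA1 score as covariate the estimates were 0.29 ± 0.12 for Dlg3, 0.24 ± 0.15 for Baiap2, 0.16 ± 0.084 for Dlg1 and 0.016 ± 0.067 for Dlg2 (SE), and 0 of the 7 passed in edgeR, with 1 unadjusted p under 0.05 (14% of all genes). Over all genes 0.0651% passed in that fit. The CA1 score also separates the groups without overlap (5.636 to 6.005 after AC-T, 3.154 to 5.272 after saline).

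**Figure D3:**
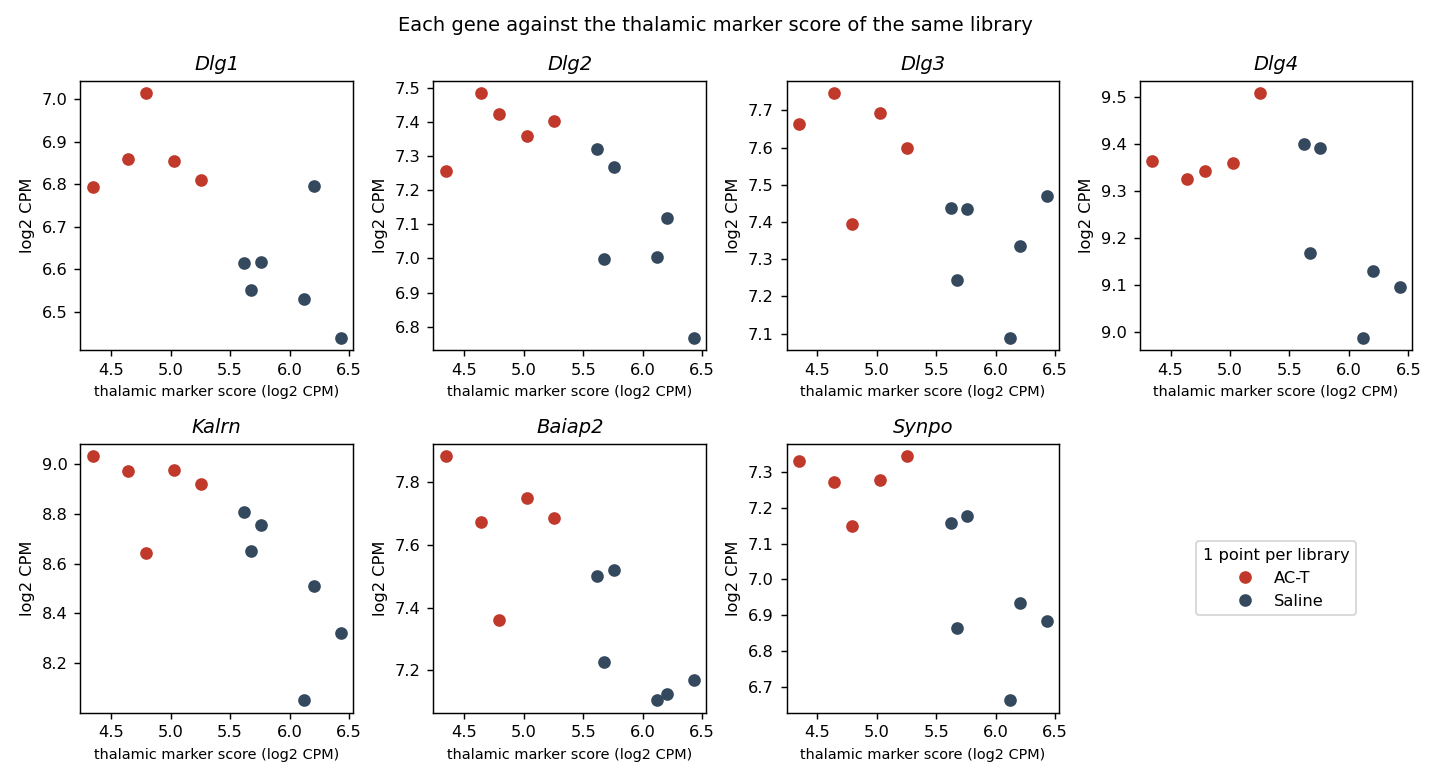
Log2 CPM of each of the 7 genes (vertical axes) against the thalamic marker score of the same library (horizontal axes), 1 point per library, AC-T in red and saline in dark blue. The groups do not overlap on the horizontal axis (4.34 to 5.26 against 5.62 to 6.43), and within saline the 3 libraries with the highest scores hold the lowest Kalrn levels.

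Levels of different genes were compared per kilobase of annotated transcript, scaled to the same total in every library. By the median transcript length of each gene Dlg4 was highest, with 829.8 ± 81.6 (SD over 11 libraries), followed by Kalrn with 134 ± 26.6 and Baiap2 with 85.2 ± 16.9. Dlg2 (73.8 ± 10.2), Dlg1 (54.4 ± 6.43), Dlg3 (47.5 ± 6.87) and Synpo (44.9 ± 6.69) came next. Neighbours in this order from Baiap2 to Dlg2 and from Dlg1 to Synpo differed by less than the larger of their SDs. The median Dlg4 transcript is 860 bases long against 6326 for the longest, and with the longest transcripts Dlg4 remained highest at 217 ± 23.4 per kilobase while Dlg1 came last at 37.9 ± 5.01. The order between them changed: Baiap2 (98.2 ± 21.6) stood before Kalrn (89.1 ± 19.2), and Dlg3 (78.2 ± 13.1) and Synpo (58.96 ± 9.75) before Dlg2 (42.3 ± 6.30).

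Genes whose pattern over the 11 libraries was among the most like each of the 7 were named by Pearson r of log2 CPM, as a description; all points share the 2 treatments and the marker differences above. For Dlg1 these included Spred1 (r = 0.96) and Nxph3 (0.94), and for Dlg2 Mpped1 (0.96), a CA1 marker, Crem (0.96) and E130012A19Rik (0.96). Dlg3 was most like Sez6l (0.98), Enc1 (0.98) and Nedd4l (0.98), and Dlg4 was much like Kcnh3 (0.96) and Rin1 (0.95). For Kalrn they were Epha5 (0.99), Sec14l1 (0.98) and Bcl11b (0.98), for Baiap2 Tspan5 (0.97), Nrgn (0.97) and Mkl1 (0.96), and for Synpo Ptk2 (0.97), Nos1ap (0.96) and Ctxn1 (0.96). Of these, Nxph3 rose 2.43-fold, Mpped1 1.90-fold, Nos1ap 1.42-fold, Ctxn1 1.38-fold and Nrgn 1.36-fold (edgeR adjusted p = 0.0122, 0.0255, 0.0136, 0.0127 and 0.0157). Mkl1, Crem and Ptk2 rose 1.27-fold, 1.24-fold and 1.23-fold (edgeR adjusted p = 0.0278, 0.0226 and 0.01635). The others named here did not pass.

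The list of actin remodelling genes drawn up around IRSp53 held the most calls of the 5 related lists described. It mixes partners of IRSp53 with general actin machinery such as the Arp2/3 complex. Of 31 genes tested 13 rose and 0 fell (41.9%, against 8.47% of all genes), with a median log2 fold change of 0.15. The log2 fold change was above 0 for 22 of the 31, against 49.4% of all genes. Among the rest Eps8 (-0.19), Enah (-0.11), Mtss1 (-0.19) and Mtss1l (-0.21) did not pass (edgeR adjusted p = 0.127, 0.174, 0.175 and 0.106). The rises were again small. Wasl, which encodes the Arp2/3 activator N-WASP, stood at 147, 154, 131, 140.4 and 149 CPM in the AC-T libraries in the order above, and at 112, 98.2, 112, 112, 113 and 121 CPM in the saline libraries, so that the groups did not overlap (log2 0.37 ± 0.056 SE; edgeR adjusted p = 0.00438). Wasf1, the neuronal WAVE protein, rose 1.37-fold (277 ± 26.2 against 203 ± 30.8 CPM; SD, n = 5 and 6; adjusted p = 0.0241), and its call ended without AC-T 502, AC-T 600, AC-T 602 or saline 300.

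The other 11 rises of this list were named after their values were seen. Cyfip2, Nckap1, Abi1 and Abi2, further subunits of the WAVE complex, rose between 1.21-fold and 1.24-fold. Actr2, Actr3, Arpc1a, Arpc3 and Arpc5, subunits of the Arp2/3 complex that branches actin, rose between 1.17-fold and 1.28-fold. Cttn, which stabilises those branches, and Pfn2, a neuronal profilin, rose 1.18-fold and 1.20-fold. Of the WAVE and Arp2/3 genes in the list, Wasf2, Wasf3, Cyfip1, Brk1, Arpc2 and Arpc4 did not pass. Their log2 fold changes were -0.019, 0.050, 0.078, 0.19, 0.29 and 0.15. The number of calls in the list was 4 without AC-T 502 and 8 on omission of saline 300, AC-T 600 or AC-T 602. It was 0 with the thalamic score as covariate, where the median was 0.11. In the same fits 4.03%, 5.45%, 5.73%, 4.41% and 0.00651% of all genes passed.

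**Figure D4:**
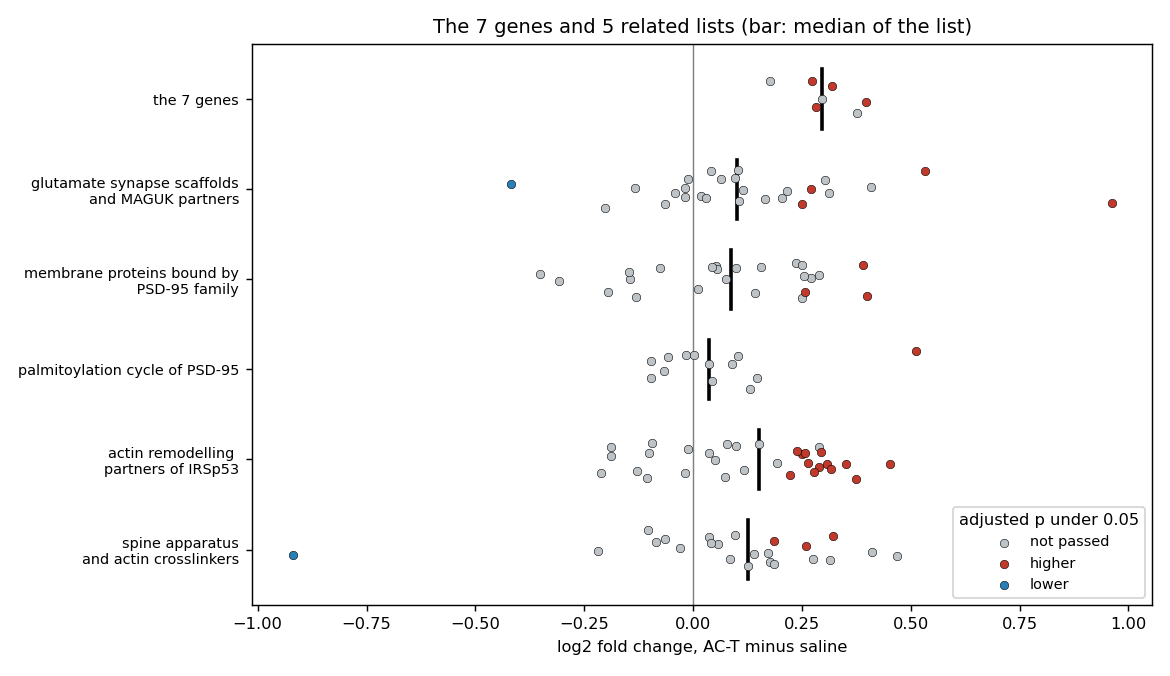
Log2 fold change, AC-T minus saline, of the 7 genes and of every tested gene of 5 related lists; red and blue points passed an adjusted p of 0.05 as higher or lower, grey points did not, and black bars give list medians. Medians lie between 0.036 and 0.15 for the 5 lists and at 0.30 for the 7 genes.

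Among other scaffolds of the glutamate synapse and partners of the family, 4 of 26 rose and 1 fell (19.2%, against 8.47% of all genes; median log2 fold change 0.10). Homer1, which links metabotropic glutamate receptors to Shank proteins and is also induced by activity, stood at 113, 97.2, 97.4, 102 and 87.4 CPM in the AC-T libraries and at 43.2, 41.9, 53.0, 43.5, 61.6 and 63.0 CPM in the saline libraries. This 1.95-fold rise was the largest of the list (adjusted p = 0.00192 in edgeR) and its groups did not overlap. Cnksr2, a scaffold that binds PSD-95, rose 1.45-fold (adjusted p = 0.0135), and Shank3 fell to 0.748 of saline (adjusted p = 0.0164). With the thalamic score as covariate the log2 fold change was 0.75 ± 0.24 for Homer1, 0.28 ± 0.21 for Cnksr2 and -0.44 ± 0.19 for Shank3 (SE), against 0.96 ± 0.12, 0.53 ± 0.10 and -0.42 ± 0.088 without it, and none of them passed (adjusted p = 0.54, 0.714 and 0.542).

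Of 24 genes for membrane and associated proteins that the family binds directly or through partners, 3 rose and 0 fell (12.5%, against 8.47% of all genes, median 0.087). Cacng3, an auxiliary subunit of AMPA receptors, rose 1.32-fold (61.6 ± 6.16 against 46.7 ± 5.04 CPM; SD, n = 5 and 6; edgeR adjusted p = 0.0163). Kcnj4, an inward rectifier potassium channel with a PDZ ligand, rose 1.31-fold (adjusted p = 0.0271), and the call ended when any of 4 libraries was left out. The list had 1 call without AC-T 502 or AC-T 602, where 4.03% and 4.41% of all genes passed.

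PSD-95 is held at the membrane by palmitoylation. Of 13 genes of this cycle 1 rose and 0 fell (7.69%, near the 8.47% of all genes; median 0.036). The rise was that of Zdhhc2, a palmitoyl transferase of PSD-95, at 46.4, 48.0, 46.9, 46.2 and 46.3 CPM in the AC-T libraries and 27.7, 29.2, 33.1, 36.3, 33.8 and 36.5 CPM in the saline libraries. The AC-T libraries lay within 2 CPM of each other and above every saline library (log2 0.51 ± 0.068 SE; edgeR adjusted p = 0.00248), and the estimate was 0.25 with the thalamic score as covariate (adjusted p = 0.566).

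Of 23 genes of the spine apparatus and actin crosslinking, 3 rose and 1 fell (17.4%, against 8.47% of all genes; median 0.13). Synpo2, a paralog of Synpo known mainly from muscle, changed in the opposite direction to Synpo. It stood at 43.9, 20.4, 26.6, 26.3 and 34.4 CPM in the AC-T libraries and at 75.5, 61.2, 62.4, 45.6, 49.9 and 49.8 CPM in the saline libraries, a fall to 0.529 of saline with groups that did not overlap (log2 -0.92 ± 0.19 SE; edgeR adjusted p = 0.0155). Its estimate was 0.0698 with the thalamic score as covariate (adjusted p = 0.932). Ppp1r9a, which encodes the actin binding protein neurabin, and Actn1, an alpha-actinin, rose 1.25-fold and 1.20-fold (adjusted p = 0.0388 and 0.0393), and these calls ended when any of 7 and 9 libraries was left out. The list had 1 call without AC-T 502, AC-T 600, AC-T 602, saline 203 or saline 300, where 4.03% to 5.78% of all genes passed. It had 2 without AC-T 501 or saline 202 (7% and 5.34% of all genes passed).

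Of the 11 genes named by rule from these lists, Homer1, Zdhhc2 and Wasl passed with series as a random effect in limma-voom (adjusted p = 0.0112, 0.011 and 0.0257) and against either saline series. Shank3 passed against either saline series but not with the random effect (0.0555). With the random effect the calls of Cnksr2 (0.0502), Synpo2 (0.0502), Cacng3 (0.0806), Kcnj4 (0.0886), Wasf1 (0.0944), Ppp1r9a (0.106) and Actn1 (0.107) ended. Against saline series 3 alone Cnksr2, Synpo2, Kcnj4, Wasf1, Ppp1r9a and Actn1 did not pass, and against saline series 2 alone Cacng3 did not (0.066).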

How the data were processed

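Polyadenylated RNA of hippocampal punches from 5 AC-T and 6 saline mice was sequenced as stranded libraries. The series' design text names Dragen 4.3.6, FastQC 0.11.9 and Salmon 1.9.0, and the submitters' processing notes name the build GRCm39; the annotation release is not given in the sources used here. The deposited values are expected counts (13.7% to 14.7% per library have a fraction, and totals differ), rounded here to whole numbers. Counts were fitted with edgeR 4.0.16 in R 4.3.3 (TMM scaling, filterByExpr with a minimum count of 10, quasi-likelihood F test, 2-sided, Benjamini-Hochberg over 15353 genes, threshold 0.05). CPM values are TMM-normalised, SDs are over mice, and SEs and 95% intervals come from the fit. Scores and ratios were compared by exact permutation over 462 splits.

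The 7 genes, the 5 related lists described and the 13 marker lists were chosen with earlier results of these data known. Named from each list are the 2 highest and 2 lowest changes that passed, and for each of the 7 genes those nearest in pattern over libraries; 1 further list and 2 such genes are not reported here. Transcript lengths came from GENCODE M21 (GRCm38) and promoters from RefSeq (GRCm38.p6), so no gene positions of GRCm39 are given. Promoter windows were used for 6 of the 7 genes, not for Synpo, and those of 4 are printed. Alternatives were other scaling, filters, DESeq2 1.42.0, limma-voom (limma 3.58.1), covariates, series and omission of each library. Although the series text gives 6 samples for each treatment, 5 of AC-T were analysed here.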

Additional observations from a re-analysis of the deposited data

Results flagged for a closer look

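Among 30 groups of 5 or 6 libraries, each tested for a library far from the others of its group (a gap test that chance meets in about 1 of 20 groups), 4 had one. Dlg1 was highest in AC-T 503, at 129.2 CPM against 111 to 116 CPM in the other 4 AC-T libraries. Dlg4 was highest in AC-T 501, at 727.9 CPM against 641 to 659 CPM. The log2 ratio of Dlg3 to Dlg1 was lowest in AC-T 503, at 0.3797, which holds the same Dlg1 value. The log2 ratio of Dlg3 to Dlg2 was highest in saline 201, at 0.7025; this library had the lowest CA1 score, 3.15, and the lowest Dlg2 level, 109 CPM.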

How the results depend on the processing

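The 7 log2 fold changes stayed above 0 in all alternatives run, except Kalrn with the thalamic score as covariate (-0.044). Dlg1 and Baiap2 passed under every scaling. Dlg3 had 0.27 with RLE factors, 0.26 with upper-quartile factors, 0.27 with library totals and 0.28 without a low-count filter, none past the threshold, and Synpo 0.29 with upper-quartile factors, where 2 of the 7 passed. The calls over all genes were 751 higher and 550 lower, 593 and 663 with upper-quartile factors and 487 and 548 with library totals. DESeq2 called 2559 genes, 16.7% of all against 8.47% in edgeR, and added Dlg2 (0.29) and Kalrn (0.37). The fit of genes above 0 in all libraries called 10.1% and added Dlg2 (0.29). With the thalamic score 1 gene and 0 of the 7 passed, and Dlg1, Dlg3, Baiap2 and Synpo stood at 0.25, 0.25, 0.071 and 0.14. With the CA1 score 10 genes and 0 of the 7 passed, with 0.16, 0.29, 0.24 and 0.18. With series as random effect in limma-voom 293 genes and 0 of the 7 passed, with 0.27, 0.29, 0.41 and 0.33. Against saline series 2, Dlg1 (0.26) and Dlg3 (0.33) lost the call and Dlg2 (0.40), Dlg4 (0.31) and Kalrn (0.62) gained it. Against saline series 3, 0 of the 7 passed, with 0.27, 0.26, 0.28 and 0.21 for Dlg1, Dlg3, Baiap2 and Synpo. The cause was not tested.

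Leaving out 1 library gave 625 (without AC-T 502) to 1229 genes, with 681, 815 and 832 on omission of AC-T 602, saline 202 and saline 300. Of the 7 genes 0 passed on omission of any of these 4 libraries, where 4.03% to 5.45% of all genes passed. On omission of AC-T 501, AC-T 600 or saline 203, 1 passed (5.73% to 7% of all genes did). Without saline 201, 2 passed (7.78% of all genes did), and at most 4 passed in any such fit. Log2 fold changes ran from 0.23 to 0.32 for Dlg1, 0.24 to 0.35 for Dlg2, 0.24 to 0.34 for Dlg3, 0.14 to 0.22 for Dlg4, 0.30 to 0.44 for Kalrn, 0.34 to 0.47 for Baiap2 and 0.27 to 0.37 for Synpo. List calls ran from 1 to 3 (membrane proteins), 4 to 15 (actin remodelling) and 1 to 4 (spine apparatus), while 4.03% to 8.04% of all genes passed. The palmitoylation median ran from -0.00014 to 0.0502. Ratio differences ran from -0.0024 to 0.074 (Dlg2/Dlg1), -0.032 to 0.10 (Dlg3/Dlg1) and -0.065 to 0.068 (Dlg3/Dlg2); the median of libraries turned the last to 0.0699.

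With the thalamic score 0 genes of each of the 5 lists passed (0.00651% of all genes did). Medians were -0.0063 (scaffolds), 0.11 (membrane proteins, from 0.087), 0.0015 (palmitoylation), 0.11 (actin remodelling) and 0.0021 (spine apparatus). Synpo2 turned to 0.0698. With library totals or upper-quartile factors 2 spine apparatus genes passed (6.74% and 8.18% of all genes did). With the longest transcript, levels per kilobase were 37.9 (Dlg1), 42.3 (Dlg2), 78.2 (Dlg3), 217 (Dlg4), 98.2 (Baiap2), 89.1 (Kalrn) and 58.96 (Synpo), which changes the order below Dlg4. No paired analysis was possible because the groups share no mouse number.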
